A study of Mus musculus with 10 samples.

Results

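The genes described here move protons, bicarbonate and chloride across membranes or interconvert carbon dioxide and bicarbonate: the subunits of the V-type proton pump, the carbonic anhydrases, and the transporter families SLC4, SLC9 and SLC26. They were chosen by name only, as the protein-coding genes whose mouse symbol starts with Atp6, with Car and a digit, or with Slc4a, Slc9a or Slc26a and a digit, leaving out Slc4a1 and Slc26a5. This rule gave 73 of the 54532 genes in the deposited table, and 66 of the 73 were among the 18061 genes tested because they had at least 10 counts in at least 5 libraries. Polyadenylated RNA was sequenced from the soft tissue of the cochlea of female mice on postnatal day 1, with both ears of an animal pooled into 1 library. The labels name 5 control libraries, Esrrgfl/fl, and 5 libraries of the genotype Esrrgfl/fl;Sox10-Cre, called cKO. All 10 animals carried loxP sites in both copies of Esrrg, which encodes estrogen-related receptor gamma, a nuclear receptor. Cre, the recombinase that removes DNA between loxP sites, was driven by Sox10 sequence and was present only in the second group. The effect of the Cre transgene and that of the deletion therefore cannot be told apart. Cells outside the Sox10 lineage, such as blood cells and macrophages, are not targets of this Cre, and the libraries hold RNA of these too.

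Endolymph, the potassium-rich fluid over the hair cells, needs a controlled pH. Bicarbonate reaches it through the chloride/bicarbonate exchanger pendrin (Slc26a4), which sits in root and spindle cells of the outer sulcus and lateral wall, and loss of pendrin acidifies endolymph and causes deafness with an enlarged vestibular aqueduct. In the endolymphatic sac, ionocytes under the transcription factor FOXI1 carry a V-type pump built from the B1 and a4 subunits (Atp6v1b1, Atp6v0a4), and human mutations in either gene cause distal renal tubular acidosis with hearing loss. The V-type pump itself is a rotary machine present in every cell: its cytosolic V1 part splits ATP, its membrane part V0 passes protons, and several subunits exist as a common form and as forms restricted to certain tissues. Carbonic anhydrases supply the protons and the bicarbonate that pumps and exchangers carry.

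Esrrg went against its label. It had 56.3, 47.9, 61.2, 64.8 and 62.0 CPM (counts scaled to 1000000 per library, with TMM factors) in control libraries 1 to 5, and 109, 96.2, 78.5, 70.6 and 94.2 CPM in the libraries labelled cKO. The groups did not overlap, and the log2 difference, libraries labelled cKO minus control, was 0.62 (SE 0.118, adjusted p = 0.0292, edgeR's quasi-likelihood test with Benjamini-Hochberg adjustment over all tested genes). Counts over the whole gene do not show which exons the reads came from, so the labels are used as names throughout. The Esrrg call was kept in 4 of the 10 fits that left out 1 library, with adjusted p up to 0.0995 (without cKO 2), and was lost with limma on log2(FPKM + 1) (adjusted p = 0.0511); its log2 difference stayed above 0 in all of these fits. Libraries held 33487089 to 41779836 counts. With a call set at an adjusted p under 0.05, 98 of all tested genes fell and 13 rose against control, and the median log2 difference was -0.01. Control library 2 stood apart for many of the genes below, and the counts and medians of the pump parts and transporter families are also given without it.

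At this threshold 1 of the 66 tested members was called, Atp6v1g2, which was lower in the libraries labelled cKO, and none was called higher. Over all tested genes 0.615% were called, 0.543% lower and 0.0720% higher. At an unadjusted p under 0.05, 7 members were lower and 3 were higher, 15.2% of those tested in all, beside 5.62% and 3.81% (9.43% together) of all tested genes. This count of 10 members depended on single libraries: leaving out 1 library gave from 5 (without cKO 5) to 11 (without control 1). CPM did not overlap between the groups for 2 members that were lower and 2 that were higher, beside 1.66% and 1.13% (2.79% together) of all tested genes. The members' log2 differences ranged from -1.19 to 1.13 with a median of 0.02, 31 of them below 0 and 35 above, beside 52.3% and 47.7% of all tested genes, and 54 were smaller than 0.25 in either direction.

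**Figure D1:**
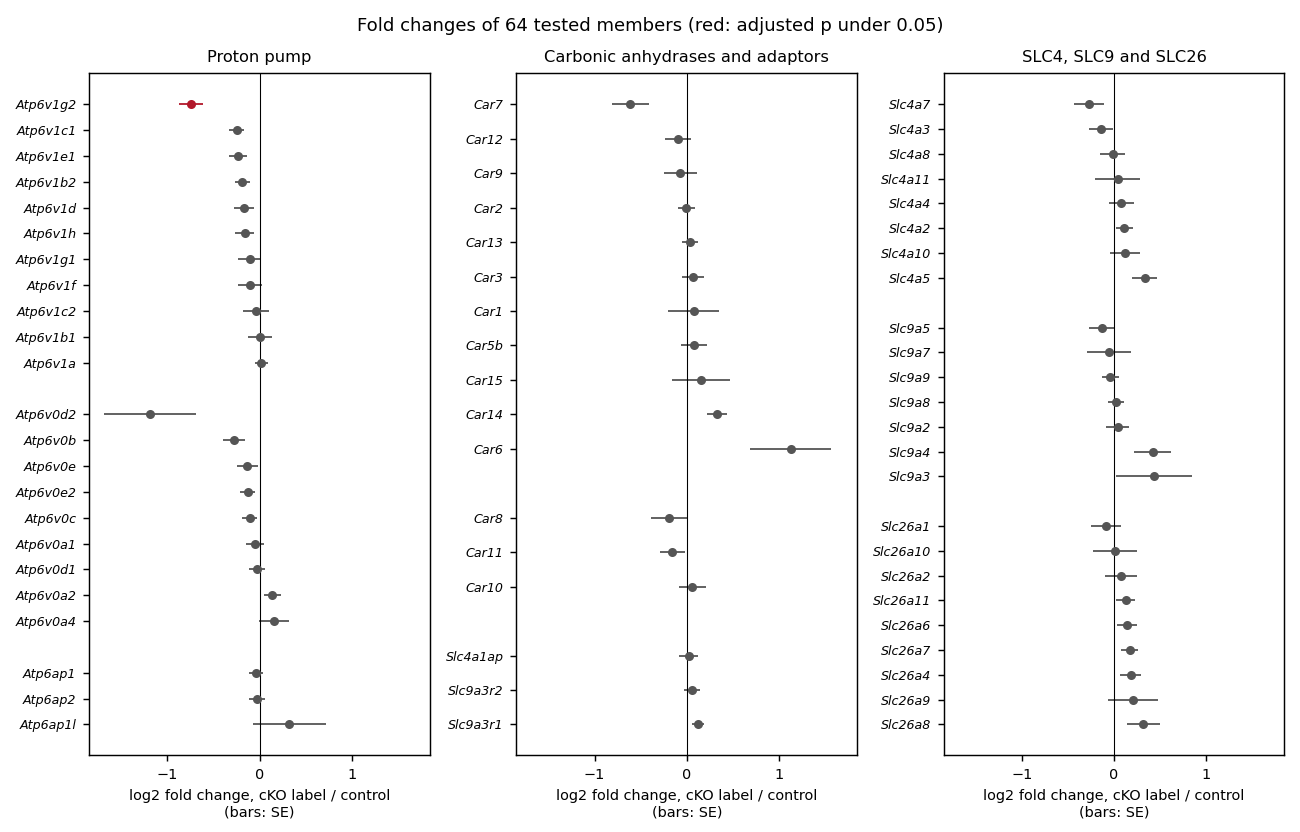
Log2 fold changes (libraries labelled cKO over control, x axis) of 64 of the 66 tested members, 1 point per gene with its standard error, in panels by role. Atp6v1g2, in red at -0.74, is the member past the adjusted p threshold of 0.05; 16 of 20 V1 and V0 genes lie left of 0, a count that falls to 13 without control library 2.

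The levels of the members spanned several orders of magnitude. Compared per length in control libraries, as FPKM (fragments relative to gene length in kilobases and to library size), 23 members had a mean of at least 10, 28 lay from 1 to 10 and 22 lay under 1. Car3, a cytosolic carbonic anhydrase of muscle and fat with low catalytic activity, led with 347 ± 54.6 FPKM (SD, n = 5). The pump followed with Atp6v1g1 at 97.0 ± 20.7 FPKM, Atp6ap1 at 73.5 ± 5.06, Atp6v1f at 60.4 ± 13.0 and Atp6v0d1 at 59.8 ± 6.45. The last pair did not differ beyond its spread, nor from the scaffold protein NHERF1 (Slc9a3r1) at 54.6 ± 4.55 FPKM. The anion exchanger Slc4a2 had 8.85 ± 0.815 FPKM. Slc4a3, an anion exchanger of excitable tissue, Slc26a4 and Atp6v1g2 lay just below and did not differ beyond their spread, with 7.43 ± 1.49, 7.43 ± 0.944 and 7.14 ± 0.401 FPKM. The median coefficient of variation of the tested members was 15.5% among control libraries and 10.8% among libraries labelled cKO.

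**Figure D2:**
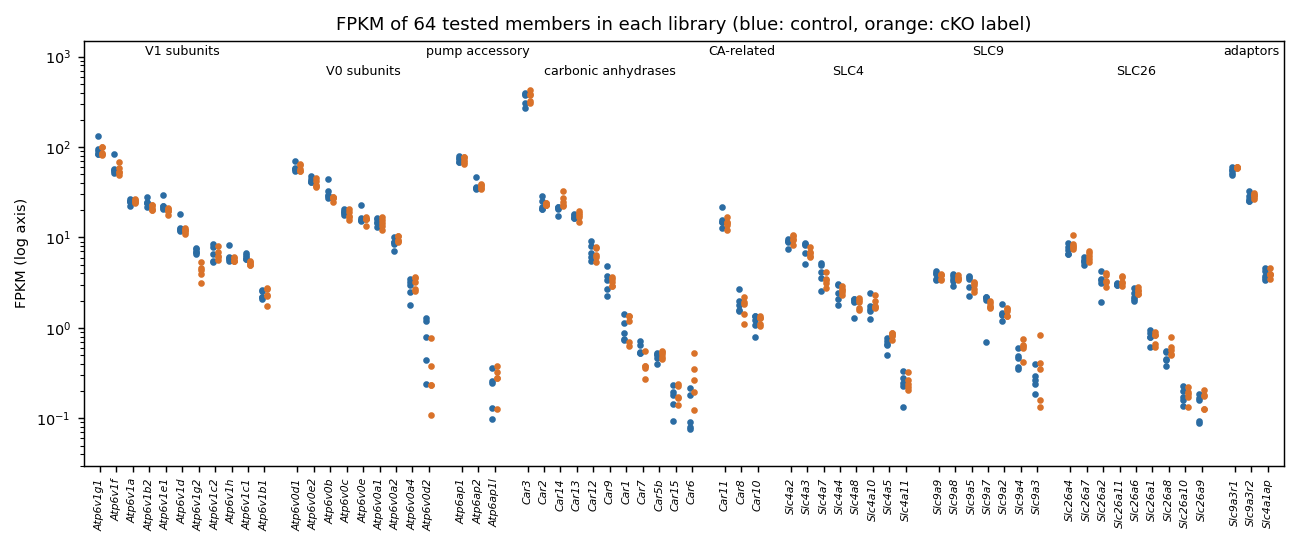
FPKM (log axis) of 64 of the 66 tested members, 1 point per library (blue for control libraries, orange for libraries labelled cKO), ordered by role and level. Car3 stands highest with a control mean of 347, and every SLC26 gene has a control mean under 10.

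Atp6v1g2 encodes the G2 subunit of the stalk that holds the V1 part in place, a form found mainly in neurons, where it is part of pumps that acidify synaptic vesicles. The gene lies on chr17:35233660-35238767 (GRCm38, plus strand). Its promoter at the RefSeq start nearest to an annotated transcript start (build GRCm38.p6, plus strand, chr17:35236346-35236645) is shown because this gene carries the only call. Capitals mark the 50 bases from the start on. This start, at 35236596, lies inside the gene and 34 bases from an annotated transcript start. The gene has another RefSeq start at 35235010, 78 bases from an annotated transcript start, whose window is not shown.

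Atp6v1g2: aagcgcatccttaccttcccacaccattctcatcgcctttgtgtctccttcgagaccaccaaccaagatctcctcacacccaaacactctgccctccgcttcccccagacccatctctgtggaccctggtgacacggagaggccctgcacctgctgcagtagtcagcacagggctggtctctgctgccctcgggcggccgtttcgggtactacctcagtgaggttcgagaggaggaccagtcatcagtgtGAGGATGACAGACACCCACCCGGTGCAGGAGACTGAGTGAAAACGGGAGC

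In control libraries 1 to 5, Atp6v1g2 had 16.8, 18.9, 19.3, 17.6 and 17.8 CPM. In libraries 1 to 5 labelled cKO it had 13.7, 10.0, 11.1, 7.80 and 11.5 CPM. Every library labelled cKO lay below every control, and the controls lay close together. The means were 18.1 ± 1.02 and 10.8 ± 2.14 CPM (SD, n = 5 each), from 306 to 717 counts per library, and the log2 difference was -0.74 (SE 0.129, adjusted p = 0.0176, edgeR). The call was kept in 8 of the 10 fits that left out 1 library, and the adjusted p became 0.0708 without control 3 and 0.0609 without cKO 2, with log2 differences over the 10 fits of -0.84 to -0.64. The gene shares 144 bp of exon, 5.74% of its own, with Nfkbil1 on the opposite strand; whether the authors' counting used strand is not stated. Nfkbil1 itself had a log2 difference of -0.15 (SE 0.137, adjusted p = 0.741, edgeR).

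Neuron markers were examined beside Atp6v1g2. Of 10 tested neuron markers 7 had a log2 difference below 0 and 3 above, from -0.74 to 0.50 with a median of -0.20. At an unadjusted p under 0.05 (edgeR), 4 were lower and 2 higher, beside 5.62% and 3.81% of all tested genes. The only call was Elavl4, which encodes an RNA-binding protein of neurons and was lower (-0.74, adjusted p = 0.00117, edgeR). The summed level of the 10 genes was 1157 to 1274 CPM in control libraries and 742 to 1403 CPM in libraries labelled cKO. Library cKO 4, the lowest for Atp6v1g2, was the lowest of all for the neuron sum. It was also the lowest of all for summed markers of Schwann cells (393 CPM), the oligodendrocyte lineage (796 CPM) and red blood cells (505 CPM). Of 6 tested Schwann cell markers 5 lay below 0 and 1 above, with a median of -0.49. Library cKO 1, the highest of its group for Atp6v1g2, was the highest of all for the neuron sum while still below every control for Atp6v1g2. The part of RNA of any of these cells in the result was not tested. In tissue of mixed cells, fewer cells of a type and less RNA per cell cannot be told apart.

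The other G subunits frame this result. G1 (Atp6v1g1), the form of all cells, had 111 ± 23.7 CPM in control libraries and 103 ± 10.6 CPM in libraries labelled cKO, a log2 difference of -0.11 (SE 0.124). G3 (Atp6v1g3), the form of kidney intercalated cells, had 1 to 4 counts per library and was not tested. Of the summed FPKM of the G genes, G2 made up 7.01% ± 0.968 in control libraries and 4.54% ± 0.829 in libraries labelled cKO, with per-library shares of 5.30% to 7.66% and 3.48% to 5.29%. These shares use the values that gave the call and are a description with no test.

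**Figure D3:**
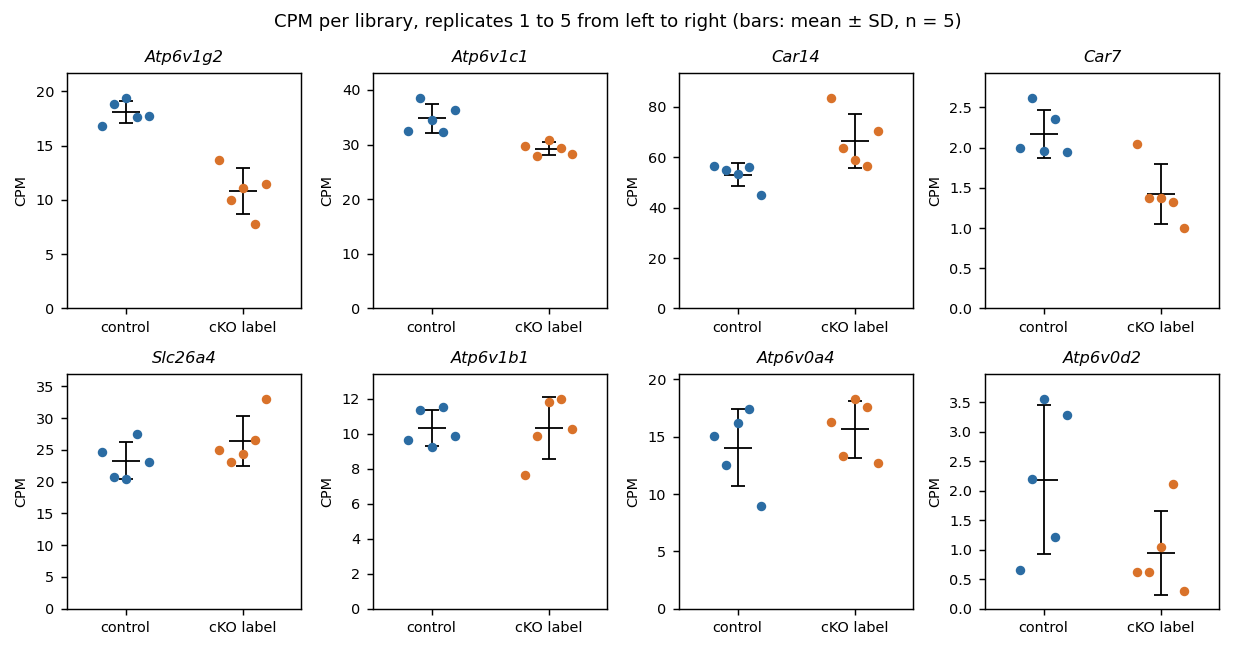
CPM (y axis from 0) of 8 members in each library, 1 point per library with group mean and SD, control in blue and the libraries labelled cKO in orange. The groups of Atp6v1g2 do not overlap, 16.8 to 19.3 against 7.80 to 13.7 CPM, while those of Slc26a4 and Atp6v1b1 do.

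No other V1 gene passed the test. Of 11 tested V1 genes 9 lay below 0, with a median log2 difference of -0.16, beside a median of -0.01 over all tested genes. Without control library 2, 7 of 11 lay below 0 and the median was -0.04. Atp6v1c1, the common form of the C subunit that joins V1 to V0, had 32.4, 38.4, 34.4, 32.3 and 36.4 CPM in control libraries and 29.8, 27.9, 30.9, 29.4 and 28.3 CPM in libraries labelled cKO. The groups did not overlap, but the log2 difference of -0.25 (SE 0.0784) did not pass the test (adjusted p = 0.284, edgeR), and it was the second smallest adjusted p among the members. Atp6v1e1, another stalk subunit, had 86.1 to 122 CPM in control libraries and 74.1 to 88.0 CPM in libraries labelled cKO, a log2 difference of -0.23 (SE 0.0982, adjusted p = 0.484, edgeR) that became -0.13 without control 2. Atp6v1b2, the common B subunit of the ATP-splitting ring, had a log2 difference of -0.19 (SE 0.0808, adjusted p = 0.496, edgeR). Its partner Atp6v1a, the catalytic subunit, had 0.02, with 151 ± 9.64 and 154 ± 5.86 CPM.

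The membrane part V0 had 7 of 9 tested genes below 0 and a median log2 difference of -0.11 (6 of 9 and -0.08 without control 2), and none passed the test. Atp6v0b, of the proton-carrying ring, had a log2 difference of -0.28 (SE 0.118, adjusted p = 0.488, edgeR), from 67.8 ± 14.5 to 55.9 ± 2.92 CPM. Of the 4 a subunits, which steer the pump to different membranes, a2 (Atp6v0a2, Golgi and early endosomes) had 0.14 and a1 (Atp6v0a1, synaptic vesicles and lysosomes) had -0.05. The gene of a3, Tcirg1, is not named Atp6 and belongs to the further pathway genes; it had -0.16. In control libraries the a genes made up 39.5% (a1), 23.1% (a2), 30.0% (a3) and 7.40% (a4) of their summed FPKM, and in libraries labelled cKO 38.6%, 25.8%, 27.2% and 8.37%.

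Atp6v0d2 had the lowest log2 difference of all members. It encodes the d2 subunit of osteoclast and kidney pumps, and it had 0.656, 2.19, 3.56, 1.22 and 3.29 CPM in control libraries and 0.630, 0.630, 1.05, 2.12 and 0.298 CPM in libraries labelled cKO. These are 11 to 128 counts per library, the groups overlapped, and the log2 difference of -1.19 (SE 0.498) did not pass the test (adjusted p = 0.483, edgeR). Osteoclast markers lay beside it: 5 of 6 tested lay below 0 with a median of -1.05, none passed the test, and their summed level was 164 to 286 CPM in control libraries and 161 to 213 CPM in libraries labelled cKO. The part of osteoclast RNA in the values of Atp6v0d2 was not tested.

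Together, 16 of the 20 tested V1 and V0 genes lay below 0, beside 52.3% of all tested genes, with a median log2 difference of -0.12. Of the 20, 6 had an unadjusted p under 0.05 (edgeR), all of them lower, beside 5.62% lower and 3.81% higher of all tested genes. Control library 2 weighed on the directions and the median: it was the highest control for 13 of the 20 genes. Without it 13 of 20 lay below 0 and the median was -0.05. The count of genes at an unadjusted p under 0.05 (edgeR) was 3 without control 2, without control 3 or without cKO 4. It was 2 without cKO 5, and stayed at 6 without control 1, control 4 or cKO 1. The mean log2 CPM of the 11 V1 genes was 5.55, 5.91, 5.61, 5.59 and 5.55 in control libraries and 5.50, 5.50, 5.49, 5.44 and 5.40 in libraries labelled cKO. Without Atp6v1g2 the values were 5.70, 6.07, 5.74, 5.73 and 5.68, and 5.67, 5.72, 5.69, 5.69 and 5.59, and the groups overlapped. The accessory proteins Atp6ap1 and Atp6ap2, which help to assemble the pump, had log2 differences of -0.04 and -0.03.

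**Figure D4:**
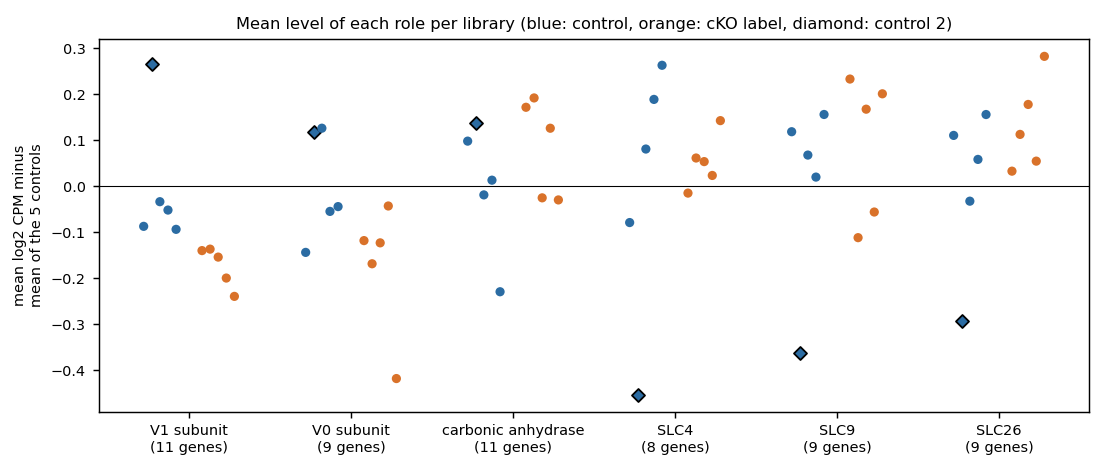
Mean log2 CPM of the tested genes of 6 roles in each library, minus the mean of the 5 controls (y axis); control libraries are blue, libraries labelled cKO orange, and the diamond is control 2. Control 2 is the highest control for the V1 genes (mean log2 CPM 5.91) and the lowest for the SLC4 genes (3.69).

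Of the pump subunits of ionocyte-type or restricted tissues, Atp6v1b1, Atp6v0a4 and Atp6v1c2 were detected and were not called, while Foxi1 itself was nearly absent from the counts. Not all such subunits were like these 3. Atp6v1g3 had 1 to 4 counts per library and was not tested, and Atp6v0d2 had the uncalled log2 difference of -1.19 on 11 to 128 counts. By control FPKM, Atp6v1b1, Atp6v0a4 and Atp6v1c2 stood above 50.9%, 53.2% and 68.6% of protein-coding genes. Which cells this RNA came from was not tested. Foxi1 had 1 count in all 10 libraries together, in control 4, and a count of 0 allows up to 0.0703 to 0.0901 CPM, depending on the library. Atp6v1b1, the B1 subunit, had 9.63, 11.4, 9.28, 11.5 and 9.86 CPM in control libraries and 7.65, 9.88, 11.8, 12.0 and 10.3 CPM in libraries labelled cKO. The control range lay inside that of the libraries labelled cKO, with means of 10.3 ± 1.05 and 10.3 ± 1.76 CPM and a log2 difference of 0.00 (SE 0.131, adjusted p = 0.999, edgeR). Atp6v0a4, the a4 subunit, had 14.0 ± 3.34 and 15.6 ± 2.52 CPM, a log2 difference of 0.16 (SE 0.167, adjusted p = 0.785, edgeR), which ranged from 0.03 without control 5 to 0.25 without control 4. It shares exon sequence with D630045J12Rik on the same strand and with Tmem213 on the opposite one, so its counts are uncertain. Atp6v1c2, the C form of kidney and lung, had 14.9 ± 3.09 and 14.5 ± 2.05 CPM and a log2 difference of -0.04 (SE 0.145). Its counts are uncertain too, because 50 bp of its exons, 2.30%, are shared with Pdia6 on the opposite strand. Pdia6 had 561 ± 125 CPM in control libraries and a log2 difference of -0.23 (SE 0.148). By share of FPKM, B1 made up 8.78% ± 1.14 of the B genes in control libraries and 9.84% ± 1.76 in libraries labelled cKO, and C2 52.1% ± 4.98 and 55.8% ± 3.65 of the C genes.

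**Figure D5:**
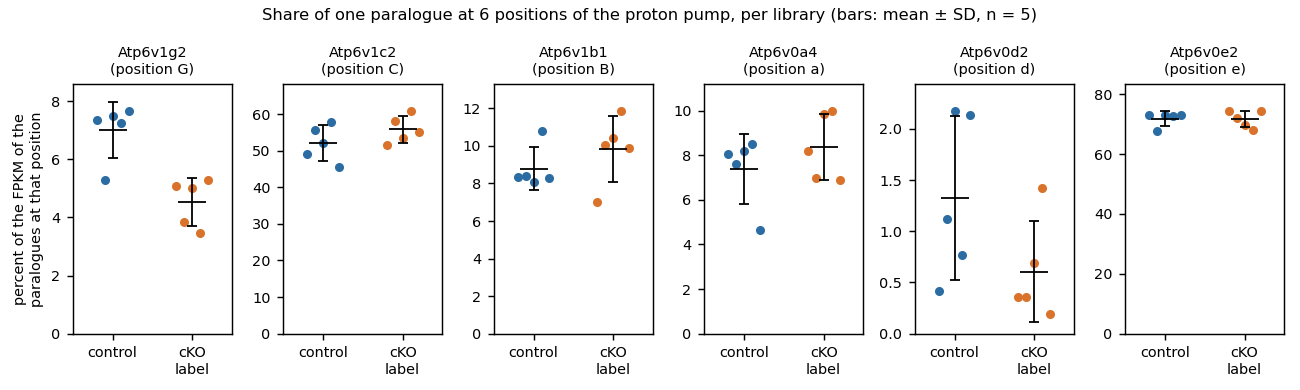
Share of 1 gene in the summed FPKM of all genes for the same position of the pump (percent, y axis from 0), for 6 positions, 1 point per library with group mean and SD. The G2 share is lower in the libraries labelled cKO (3.48% to 5.29%) than in control libraries (5.30% to 7.66%), and the shares of B1 and C2 overlap between the groups.

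Promoter windows were searched for binding words of the regulators named above and of the lysosomal regulators TFEB and TFE3. RefSeq windows of 300 bases, from 250 before to 50 after a gene's start, were found for 52 of the 73 members, 64 windows in all. The word TGTTTAC, the core bound by forkhead proteins such as FOXI1, was searched on both strands and stood in 3 of the 64 windows (Atp6v1b1, Car5a and Slc26a1), beside 3.65% of all 32851 windows. The palindrome TCACGTGA, of the type bound by TFEB and TFE3, stood in 3 windows, all of pump genes (Atp6v0d1, Atp6v0e and Atp6v1a), beside 0.974% of all windows. The word TCAAGGTCA, which estrogen-related receptors bind, stood in none of the 64 and in 0.423% of all windows; that says only that these letters are not in these windows. The stretches around the matches in pump genes are printed, from GRCm38.p6, with the match in capitals: chr6:83742899-83742945 (plus strand) for Atp6v1b1, chr8:105566041-105566088 (minus) for Atp6v0d1, chr16:44139364-44139411 (minus) for Atp6v1a and chr17:26676378-26676425 (plus) for Atp6v0e.
Atp6v1b1: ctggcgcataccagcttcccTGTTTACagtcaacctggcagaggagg
Atp6v0d1: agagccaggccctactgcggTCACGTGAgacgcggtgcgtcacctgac
Atp6v1a: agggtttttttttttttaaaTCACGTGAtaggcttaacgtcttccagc
Atp6v0e: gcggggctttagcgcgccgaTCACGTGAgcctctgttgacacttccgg
A match is a stretch of letters, not a shown binding site. Of the genes carrying a match, Car5a was not tested and none of the others passed the test.

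The carbonic anhydrases lay on both sides of 0 with no call. Of 11 tested 4 lay below 0 and 7 above, with a median log2 difference of 0.07, which was -0.01 without control 5 and 0.10 without control 2. Car14, a membrane enzyme whose active site faces the outside of the cell, had 56.4, 55.0, 53.2, 56.1 and 45.0 CPM in control libraries and 83.4, 63.7, 59.0, 56.6 and 70.4 CPM in libraries labelled cKO. The groups did not overlap, by a margin of less than 1 CPM between control 1 and cKO 4. The log2 difference of 0.33 (SE 0.108) did not pass the test (adjusted p = 0.317, edgeR). Car14 shares 445 bp of exon, 17.5% of its own, with Aph1a on the opposite strand, and Aph1a had a log2 difference of 0.05.

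Car7, a cytosolic enzyme of neurons, had 2.17 ± 0.298 CPM in control libraries and 1.42 ± 0.379 CPM in libraries labelled cKO, a log2 difference of -0.61 (SE 0.202, adjusted p = 0.317, edgeR). Only cKO 1 reached into the control range, and its neuron sum of 1403 CPM lay above every control. Library cKO 3 had a neuron sum inside the control range (1158 CPM) and lay below every control for Car7. The part of neuronal RNA in the Car7 values was not tested. Car6, the secreted enzyme of saliva, had the highest log2 difference of all members, 1.13 (SE 0.438, adjusted p = 0.435, edgeR), on 5 to 17 counts in control libraries and 9 to 32 in libraries labelled cKO.

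Among the more abundant carbonic anhydrases none had a log2 difference past the test. Car3 had 1002 ± 156 and 1052 ± 138 CPM, a log2 difference of 0.07 (SE 0.121), and made up 82.2% ± 1.66 and 81.9% ± 2.26 of the summed FPKM of the family. Car2, the fast cytosolic enzyme found in fibrocytes of the lateral wall and in red blood cells, had 61.7, 69.6, 50.6, 52.9 and 51.3 CPM in control libraries and 57.9, 56.1, 55.8, 56.0 and 59.1 CPM in libraries labelled cKO. Its highest control, control 2, was also the highest library for summed red blood cell markers. Control 5, next for that sum with 2324 CPM, had 51.3 CPM of Car2. The sums ran from 814 to 3018 CPM in control libraries and from 505 to 1346 CPM in libraries labelled cKO. All 8 tested red blood cell markers lay below 0, with a median of -0.74, and 1 of them, Tfrc, the transferrin receptor that other dividing cells also carry, was called lower (-0.73, adjusted p = 0.00103, edgeR); their part in the Car2 values was not tested. Car1, an enzyme of red blood cells, had a log2 difference of 0.08 on 1.24 ± 0.372 and 1.31 ± 0.449 CPM. Car12, a membrane enzyme, and cytosolic Car13 had log2 differences of -0.09 and 0.03. The related proteins Car8, Car10 and Car11, which lack catalytic activity, had -0.19, 0.06 and -0.16.

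Pendrin was not called. Slc26a4 (chr12:31519827-31559969, GRCm38, minus strand) had 24.7, 20.8, 20.4, 27.5 and 23.1 CPM in control libraries and 25.0, 23.1, 24.3, 26.5 and 33.1 CPM in libraries labelled cKO. The groups overlapped except for cKO 5, which lay above every control. The log2 difference was 0.18 (SE 0.116, adjusted p = 0.646, edgeR), and 0.09 without cKO 5. A list of 8 genes taken as markers of root, spindle and outer sulcus cells, Slc26a4 among them, had a median of 0.06. In this list 3 genes lay below 0 and 5 above, with Fgf10, a growth factor, called lower. Which cells the RNA of Fgf10 came from was not tested, so its call is not a result about the cells that carry pendrin.

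With Slc26a4 counted, 8 of the 9 tested SLC26 genes lay above 0 with a median log2 difference of 0.14, and none passed the test. Without control 2, 6 of 9 lay above 0 and the median was 0.11. Slc26a7, a chloride transporter of Reissner's membrane, had 27.5 to 33.6 CPM in control libraries and 29.3 to 38.6 CPM in libraries labelled cKO, a log2 difference of 0.17 (SE 0.0935, adjusted p = 0.606, edgeR). Slc26a2, which brings sulfate into cartilage cells, had the widest control range, 23.9 to 53.9 CPM, and a log2 difference of 0.08 (SE 0.170). Slc26a6 and Slc26a11 had 0.14 and 0.13.

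The SLC4 bicarbonate transporters, 8 tested, had 3 genes below 0 and 5 above, with a median log2 difference of 0.06. This turned without control 2, to 5 below and 3 above with a median of -0.07. Slc4a7, a sodium/bicarbonate cotransporter whose loss deafens mice, had 55.2, 39.2, 63.0, 75.0 and 80.7 CPM in control libraries and 42.3, 53.6, 48.2, 52.0 and 62.9 CPM in libraries labelled cKO. The ranges overlapped broadly, and the log2 difference was -0.27 (SE 0.165, adjusted p = 0.632, edgeR). Slc4a5, a sodium/bicarbonate cotransporter, had 3.86 ± 0.596 and 4.86 ± 0.359 CPM, a log2 difference of 0.33 (SE 0.139, adjusted p = 0.483, edgeR). Slc4a11, mutated in human corneal dystrophy with hearing loss, was low, with 1.22 ± 0.370 and 1.26 ± 0.236 CPM. The anion exchangers Slc4a2 and Slc4a3 had log2 differences of 0.11 and -0.14.

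Of the 9 sodium/proton exchangers, 6 lay above 0 with a median log2 difference of 0.02; without control 2, 4 lay above 0 and the median was -0.01. None passed the test. The Golgi exchanger Slc9a8 had a log2 difference of 0.02 and the endosomal exchanger Slc9a9 one of -0.04. Slc9a4, known from gastric parietal cells, had 0.42 (SE 0.199, adjusted p = 0.534, edgeR) on 2.09 ± 0.467 and 2.81 ± 0.572 CPM, and shares exon sequence with the gene Gm37435 and the antisense gene Gm35801 on the opposite strand.

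Over the SLC4, SLC9 and SLC26 families 19 of 26 tested genes lay above 0, beside 47.7% of all tested genes, with a median log2 difference of 0.08. Of the 26, 1 had an unadjusted p under 0.05 (edgeR), beside 9.43% of all tested genes. Control library 2 was the lowest control for 20 of the 26, the opposite of its place among the pump subunits, and without it 13 genes lay above 0 and 13 below, with a median of 0.01. The SLC genes had a median exon length of 5421 bases and the pump subunits 3911. With an offset for GC content and length in the fit, the medians were 0.04 and -0.09. The 3 proteins that carry a transporter's symbol without transporting, the scaffolds Slc9a3r1 and Slc9a3r2 and the kanadaptin gene Slc4a1ap, had log2 differences of 0.12, 0.06 and 0.02.

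The 7 members that were not tested were Car4, Car5a, Slc4a9, Atp6v1g3, Slc26a3, Atp6v1fnb and Atp6v1e2, with at most 11 counts in any library. Of 33 further genes of the pathway, pump assembly factors, other proton pumps and exchangers, lactate carriers, lysosomal chloride exchangers, proton-sensing receptors and regulators, 26 were tested. Of these 18 lay below 0 and 8 above, with a median log2 difference of -0.05, and none was called. At an unadjusted p under 0.05 (edgeR) 1 was lower and 1 higher, beside 5.62% and 3.81% of all tested genes. Of marginal cell markers, the genes of the cells that secrete potassium into endolymph, 5 of 5 lay above 0 with a median of 0.21 and none was called; their summed level was 906 to 1223 CPM in control libraries and 1162 to 1260 CPM in libraries labelled cKO.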

How the data were processed

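Polyadenylated RNA of 10 cochlear libraries was sequenced as paired reads of 150 bp, per the labels. The submitters' processing notes name STAR 2.5, HTSeq 0.61, DESeq2 2 and mm10, with no roles; annotation and use of strand are not given in the sources used here. The authors deposited whole-number counts per gene and FPKM values. Symbols, positions and exon overlaps came from GENCODE M21 (GRCm38), which held 54495 of the 54532 IDs; the other 37 took 0.00763% of counts. Implied FPKM lengths were within 0.1% of that annotation for 95.3% of 13928 well counted genes.

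Deposited counts of genes with at least 10 counts in at least 5 libraries were tested with edgeR 4.0.16 (R 4.3.3; TMM, robust quasi-likelihood F-test, genotype as the only term) and adjusted over all 18061 genes by Benjamini-Hochberg; a call is an adjusted p under 0.05. The biological coefficient of variation was 16.2%. A count of 0 allows up to 3 counts, for counting error only. The script was tested on simulated data. There DESeq2, used as an alternative only, made more false calls than its threshold allows, and fold changes on log2 FPKM shrank with the constant added. Alternatives were other scaling factors, filters and thresholds, DESeq2 1.42.0, limma-voom and limma 3.58.1 on log2 FPKM, a replicate block, an offset for GC content and length, and leaving out each library.

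Named were Esrrg, Foxi1, the endolymph and ionocyte genes, called members, members whose CPM did not overlap, the 5 members of smallest p in each direction and the 3 of highest control FPKM per family. Some genes are not reported here by name. Members named beyond this rule were chosen after their values were seen. The members, lists, markers and tests were chosen with earlier results of these data known. Lists are described by counts and medians, with no test of a list.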

Additional observations from a re-analysis of the deposited data

Results flagged for a closer look

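In 4 of 56 groups of 5 libraries of named genes, 1 library stood apart from the other 4 by Dixon's criterion of 0.71; chance flags about 5% of groups. Control 2 was that library for 3 of the 4. Atp6v1e1 had 122 CPM there, against 86.1 to 92.5 in the other controls. Atp6v1f, of the pump's central rotor, had 89.2 CPM, against 55.8 to 61.5. Atp6v1g1 had 152 CPM, against 95.8 to 108. Car14 had 45.0 CPM in control 5, against 53.2 to 56.4 in the other controls.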

How the results depend on the processing

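Atp6v1g2 was the called member in each of the 13 other fits with all libraries (DESeq2, limma-voom, limma on FPKM, other factors, filters, the replicate block and the offsets included) at an adjusted p under 0.05; at 0.01 the edgeR fit of the report called 0 members. Leaving out 1 library gave 0 to 1 called members, 0 without control 3 or cKO 2. Genes called lower over the whole table were 253 with DESeq2, 368 with limma-voom, 156 with the offset for GC content and length, also with the block added, and 40 at 0.01, against 98; higher were 54, 58, 24, 23 with the block added, 24 at an adjusted p under 0.1 and 7 at 0.01, against 13. Leaving out 1 library gave 44 to 177 lower and 7 to 17 higher. Esrrg lost its call with log2 differences of 0.61 under the replicate block (adjusted p = 0.0623), 0.61 under block and offset (0.0724), 0.57 on log2(FPKM + 1) (0.0511) and 0.61 on log2(FPKM + 0.1) (0.0512, limma); without 1 library it had 0.54 to 0.69 and kept its call in 4 of 10 fits. Without 1 library the medians were -0.16 to -0.05 for V1 and V0, -0.01 to 0.10 for carbonic anhydrases and 0.01 to 0.12 for SLC transporters; limma-voom gave -0.06 and 0.01 for the first and last. The cause of these shifts was not tested.

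Some uncalled genes near 0 changed sign. Atp6v1b1 became -0.012 with upper-quartile factors, -0.0014 with at least 1 CPM, -0.012 under the block, -0.020 with the offset, -0.032 with both, -0.0022 and -0.0063 on the FPKM scales, and -0.059 to 0.090 without 1 library. Car2 became 0.0020 with no filter, 0.089 with limma-voom, 0.0051 under the block, 0.046 with the offset, 0.050 with both, 0.011 on both FPKM scales, and -0.047 to 0.070 without 1 library. Atp6v1c2 became 0.017 with limma-voom, 0.023 with the offset, 0.025 with both, and -0.12 to 0.056 without 1 library. Atp6v1f and Atp6v1g1 became 0.012 and 0.011 with the offset, 0.012 and 0.013 with both, and -0.18 to 0.032 and -0.16 to 0.028 without 1 library. With limma-voom Slc26a2 and Slc4a11 became -0.059 and -0.18. Without 1 library they had -0.069 to 0.20 and -0.12 to 0.18, Car12 -0.17 to 0.012 and Car3 -0.0066 to 0.12.

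Replicate numbers are shared by the groups, but the labels give genotype as the only factor, so the number was not taken as a pairing. Same-numbered libraries deviated together with correlations of 0.0232 to 0.180, and 3 of 5 correlated best with their own number. Whether they share a batch was not tested. The replicate block gave Atp6v1g2 -0.76 (adjusted p = 0.0258, edgeR) and 81 genes lower and 16 higher. Members with few counts, such as Car6 and Atp6v0d2, have wide errors at this depth.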

Other observations

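Among the further genes of acid-base handling, Tfcp2l1, a transcription factor of kidney intercalated cells and other ducts, had a log2 difference of 0.60 (SE 0.256, adjusted p = 0.491, edgeR), with 11.3 to 25.4 CPM in control libraries and 21.1 to 51.5 CPM in libraries labelled cKO, where cKO 1 was the highest. It did not pass the test and was singled out after its values were seen.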
